A study of Homo sapiens with 6 samples.

Results

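Expression of 10 genes that encode feedback inhibitors of MAP kinase signalling was examined in manganese-exposed SH-SY5Y, an established line derived from a human neuroblastoma whose cells resemble noradrenergic neuroblasts. The genes are 6 MAP kinase phosphatases (DUSP1, DUSP4, DUSP5, DUSP6, DUSP8 and DUSP10) and 4 members of the Sprouty and SPRED family (SPRY2, SPRY4, SPRED1 and SPRED2), out of 18132 genes on the array. They were taken by name, and every probe set annotated to exactly 1 of these symbols was used, which gave 28 of the 44988 probe sets with 1 gene. The series holds 6 Affymetrix arrays, 3 from untreated cultures and 3 from cultures that received 100 µM manganese for 24 h, a dose stated to be the LC50, the median concentration for killing, divided by 5. All cultures were the same cell line and were kept in a mixture of MEM and F12 with 10% fetal bovine serum, and the manganese salt is not named. Arrays within a group are labelled as biological replicates, but how their cultures were kept apart is not stated, so the p-values measure the spread between these arrays.

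MAP kinase cascades carry signals from growth factor receptors and from stress through kinases that are switched on by phosphorylation of a threonine and a tyrosine. MAP kinase phosphatases remove both phosphates, and several of their genes are switched on by the kinases they oppose, which makes them a negative feedback. Sprouty and SPRED proteins act further upstream, between growth factor receptors, RAS and RAF, and in neuroblasts they temper signals such as those of neurotrophins and of the receptor RET.

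In manganese-exposed cells 5 of the 6 phosphatase genes, DUSP1, DUSP4, DUSP5, DUSP8 and DUSP10, had higher levels on all 3 manganese arrays than on any control array, by 0.37 to 0.69 on the log2 scale, while SPRY2 was lower on all 3 by 0.59. DUSP6, SPRY4, SPRED1 and SPRED2 had overlapping groups. None of the 10 genes passed the threshold of the limma test, an adjusted p of 0.05 over the 13407 genes tested, and the lowest adjusted p was 0.111, for DUSP8. Of all tested genes 0.142% passed, 18 higher and 1 lower in manganese, or 176 higher and 79 lower when the arrays were centred on housekeeping genes. At an unadjusted p under 0.05 there were 7 of the 10 genes, 6 higher and 1 lower, against 12.8% of all tested genes, 5.97% higher and 6.85% lower. The 6 genes with non-overlapping groups compare with 19.8% of all tested genes. These counts describe genes that were picked with earlier results of the same arrays known, and they were not tested as a group. The median log2 fold change of the 10 genes was 0.42, against 0.02 for all tested genes. It was 0.24 with the mean of each gene's passing probe sets and 0.26 against control 2 alone. A fit with spike-in level as a term, low for controls 1 and 3 and high for the other arrays, gives that same difference by construction. RNA was measured in bulk, so a change in every cell cannot be told apart from a change in part of the cells.

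**Figure D1:**
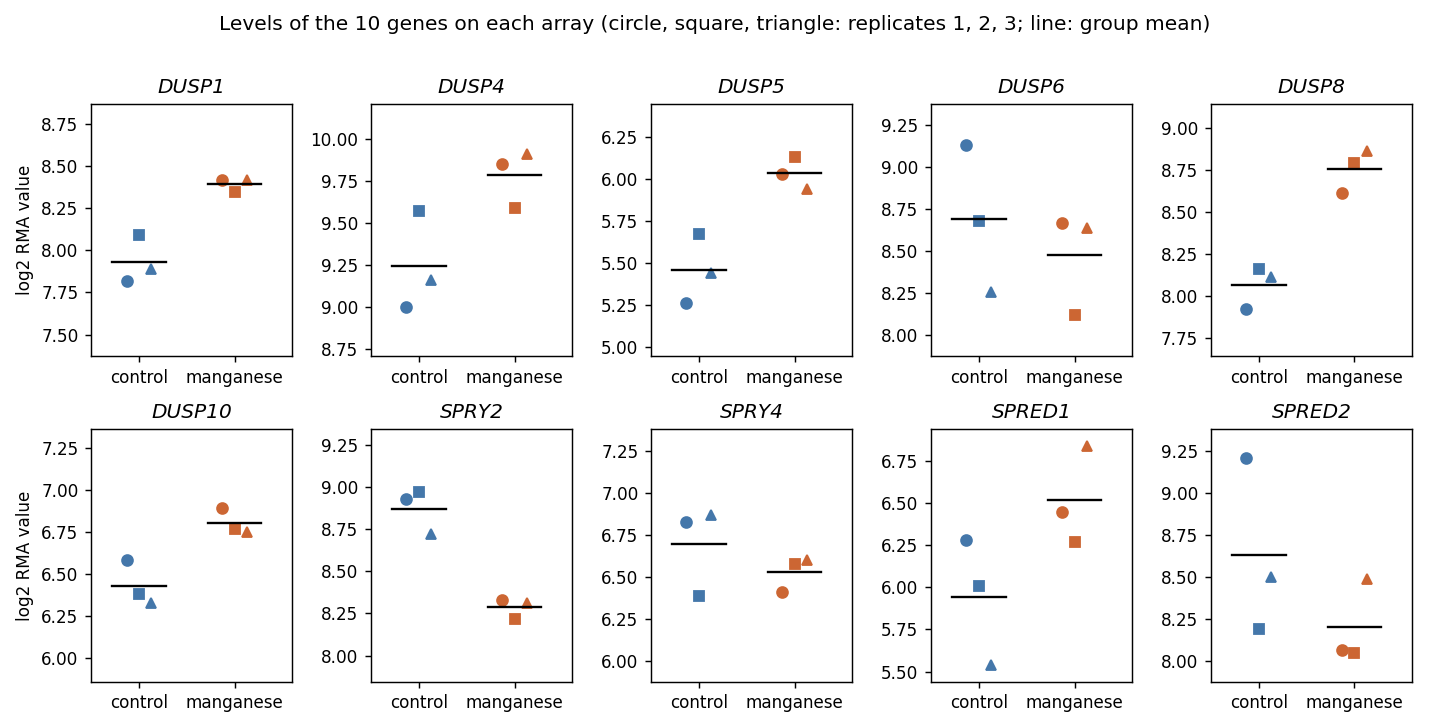
Log2 RMA value of the probe set that stands for each of the 10 genes on the 3 control and 3 manganese arrays, with the group mean as a line; every panel spans the same log2 range, and levels are not comparable between genes. DUSP1, DUSP4, DUSP5, DUSP8 and DUSP10 lie higher and SPRY2 lies lower on all manganese arrays, and the groups of the other 4 genes overlap.

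The arrays were not equally alike. Control 1 correlated with the other arrays at r = 0.967 to 0.981 (Pearson's r over genes, which do not count as replicates), and the other 5 arrays correlated with each other at 0.984 to 0.996. Poly(A) spike-in RNA read 6.14 in control 1 and 5.81 in control 3 on the log2 scale, against 7.79 in control 2 and 7.80 to 7.91 on the manganese arrays. Differences from control 2 alone are therefore given too, and the part of the spike-in difference in the results was not tested. The 9 measured markers of noradrenergic neuroblasts all passed the filter on dim probe sets, with a mean log2 value of 10.97 to 11.10 on control and 10.83 to 10.89 on manganese arrays. Of 6 epithelial markers 4 passed, while EPCAM and CDH1 were dim, and the mean over all 6 was 4.67 to 4.85 on control and 4.94 to 5.03 on manganese arrays. Of 5 measured leukocyte markers PTPRC, CD14 and LYZ were dim and CD68 and CD3E passed, and the mean over the 5 was 3.99 to 4.09 on control and 4.04 to 4.21 on manganese arrays. Of 8 markers of the mesenchymal neuroblastoma state 6 passed, with a mean over all 8 of 6.62 to 6.81 and 6.71 to 6.81. Of 6 fibroblast markers 4 passed, with 4.80 to 4.96 and 4.82 to 4.92. Among single markers VIM (0.77), KRT19 (0.50), KRT5 (0.26), CD3E (0.17) and COL1A1 (0.12) were higher on all manganese arrays, and STMN2 (-0.71), PDGFRB (-0.29) and COL1A2 (-0.16) were lower on all. None of these 8 passed the test. The part of these marker shifts in the results was not tested.

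DUSP8, which is abundant in brain, and DUSP10 encode phosphatases that act mainly on the stress-activated kinases JNK and p38. DUSP8 (probe set 11758684_x_at) read 7.92, 8.16 and 8.11 on control arrays 1 to 3 and 8.61, 8.79 and 8.86 on the manganese arrays. All manganese values lay above all control values, and the gap between the groups was wider than the range within either. The group means were 8.06 ± 0.13 and 8.75 ± 0.13 (SD, n = 3), a log2 fold change of 0.69 (95% interval 0.41 to 0.97), which is 1.61-fold, with a limma adjusted p of 0.111, and 0.59 against control 2 alone. In the fit of all probe sets its other probe set differed by 0.24 (0.01 to 0.46), in the same direction and with non-overlapping groups. The mean of both probe sets gave 0.46 for the gene, with a limma adjusted p of 0.173. A probe set annotated to both DUSP8 and the pseudogene GLUD1P3 was left out by the rule and differed by 0.66. The suffix _x_at marks probes that can also match other transcripts, and their part in the DUSP8 signal was not tested.

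DUSP10 (11731303_a_at) read 6.58, 6.38 and 6.33 on the control arrays and 6.89, 6.77 and 6.75 on the manganese arrays. Its groups did not overlap, although control 1 lay closer to the manganese arrays than the other controls did. The means were 6.43 ± 0.14 and 6.80 ± 0.08, a log2 fold change of 0.37 (0.11 to 0.64) with an adjusted p of 0.289, and 0.43 against control 2 alone. The 4 probe sets of DUSP10 did not share a direction. They ranged from -0.12 to 0.37, and the mean of the 4 gave 0.19 for the gene.

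DUSP1, DUSP4 and DUSP5 encode nuclear phosphatases that are switched on by mitogens and stress, and DUSP5 is selective for ERK. DUSP1 (11715766_a_at) read 7.82, 8.09 and 7.89 on the control arrays and 8.42, 8.35 and 8.42 on the manganese arrays. The manganese arrays were nearly level and the controls more spread, with control 2 the highest of them. The means were 7.94 ± 0.14 and 8.40 ± 0.04, a log2 fold change of 0.46 (0.20 to 0.72), which is 1.38-fold, with an adjusted p of 0.198, and 0.31 against control 2 alone. A further probe set of DUSP1 gave 0.42, also with non-overlapping groups. The remaining 2 gave 0.13 and 0.06, and the last of these was dim. The mean of the 3 passing probe sets gave 0.34 for DUSP1.

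The promoters of DUSP8 and DUSP1 are shown because both genes lay higher on all manganese arrays and both carry the full cAMP response element, the binding motif of the ATF and CREB family. The promoter of SPRY2, the gene that lay lower, is shown for contrast. Each is the 250 bases before a start of the gene in RefSeq (GRCh38.p14), 5′ to 3′ on the minus strand, at chr11:1572272-1572521 for DUSP8, chr5:172771196-172771445 for DUSP1 and chr13:80341127-80341376 for the most upstream of the 3 SPRY2 starts in the table. Capitals mark matches on either strand to TGACGTCA in DUSP8 and DUSP1, and to the EGR motif GCGNGGGCG in SPRY2.
DUSP8: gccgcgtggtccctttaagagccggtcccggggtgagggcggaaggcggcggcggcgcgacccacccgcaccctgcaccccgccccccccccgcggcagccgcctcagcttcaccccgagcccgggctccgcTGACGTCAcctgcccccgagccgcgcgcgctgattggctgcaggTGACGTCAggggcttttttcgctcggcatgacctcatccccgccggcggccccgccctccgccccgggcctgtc
DUSP1: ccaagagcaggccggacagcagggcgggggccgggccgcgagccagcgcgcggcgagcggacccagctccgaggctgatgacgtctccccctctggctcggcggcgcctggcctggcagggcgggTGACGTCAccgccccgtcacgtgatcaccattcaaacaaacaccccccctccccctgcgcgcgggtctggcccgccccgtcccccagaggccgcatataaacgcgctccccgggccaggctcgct
SPRY2: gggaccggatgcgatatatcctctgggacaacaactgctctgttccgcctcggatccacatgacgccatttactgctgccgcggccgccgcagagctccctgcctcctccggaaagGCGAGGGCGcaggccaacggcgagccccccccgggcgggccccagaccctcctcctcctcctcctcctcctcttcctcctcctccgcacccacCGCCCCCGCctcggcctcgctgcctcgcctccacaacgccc
The element TGACGTCA begins 118 and 74 bases before the start of DUSP8 and 125 bases before that of DUSP1. The 8 genes with an entry in the promoter table have 12 windows, of which these 2 held it, and 1.65% of all 35116 promoter windows of this length did. DUSP10 also lay higher on all manganese arrays, and neither of its windows in the table held TGACGTCA. The AP-1 motif TGANTCA was in none of the 12 windows, against 6.57% of all windows, and GCGNGGGCG was in 2, one each of SPRY2 and SPRY4, against 8.41%. The 3 motifs do not overlap in these windows. They were chosen after the sequences had been seen, and a match is a description of the letters, not of binding. DUSP4 and DUSP5 have no entry in the table.

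DUSP5 (11717863_a_at) read 5.26, 5.67 and 5.44 on the control arrays and 6.03, 6.13 and 5.94 on the manganese arrays. The groups did not overlap, and control 2 was again the highest control. The means were 5.46 ± 0.20 and 6.03 ± 0.10, a log2 fold change of 0.57 (0.27 to 0.88), which is 1.49-fold, with an adjusted p of 0.189, and 0.36 against control 2 alone. DUSP4 (11744162_a_at), whose product acts on ERK and JNK, read 9.00, 9.57 and 9.16 on the control arrays and 9.85, 9.59 and 9.91 on the manganese arrays. Control 2 and manganese 2 differed by only 0.03, so the groups barely separated. The DUSP4 log2 fold change was 0.54 (0.16 to 0.93) with an adjusted p of 0.291, and 0.22 against control 2 alone. DUSP4 and DUSP5 have 1 probe set each, so no second reading of these transcripts was made.

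DUSP6, the cytoplasmic phosphatase that is selective for ERK and a widely used readout of ERK activity, did not follow the other phosphatases in direction. It read 9.13, 8.68 and 8.26 on the control arrays and 8.67, 8.12 and 8.64 on the manganese arrays (11744618_a_at). The controls alone spanned more than the difference between the group means, and manganese 2 was the lowest of all 6 arrays. The log2 fold change was -0.22 (-0.77 to 0.33), with an adjusted p of 0.720. All 4 probe sets of DUSP6 gave the same picture, with differences from -0.30 to -0.22. In all 4, control 1 was the highest array, the controls ran in the order 1, 2, 3 and manganese 2 was the lowest. The spread between the arrays was therefore shared by all probe sets of the gene, and a difference of up to 0.33 higher or 0.77 lower lies within the interval. Without control 1 the DUSP6 difference was 0.00.

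SPRY2 was the only one of the 10 genes that lay lower on every manganese array. Its product is induced by receptor tyrosine kinase signalling and restrains the RAS and ERK pathway. SPRY2 (11753988_a_at) read 8.93, 8.97 and 8.72 on the control arrays and 8.33, 8.22 and 8.31 on the manganese arrays. The lowest control was 0.39 above the highest manganese array, and the manganese arrays were close to each other. The means were 8.87 ± 0.14 and 8.29 ± 0.06, a log2 fold change of -0.59 (-0.84 to -0.33), which is 1.50-fold, with an adjusted p of 0.138. SPRY2 has 1 probe set. SPRY4, a related inhibitor, read 6.83, 6.39 and 6.87 on the control arrays and 6.41, 6.58 and 6.60 on the manganese arrays (11754344_s_at). Control 2 was its lowest array, and the groups overlapped. The SPRY4 difference was -0.17 (-0.51 to 0.18), with an adjusted p of 0.660. Against control 2 alone it was 0.14. Its 2 other probe sets were dim and differed by 0.13 and 0.02.

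SPRED1 and SPRED2 encode membrane-associated relatives of Sprouty that bring the RAS GTPase-activating protein neurofibromin to the membrane. SPRED1 (11734826_s_at) read 6.28, 6.01 and 5.54 on the control arrays and 6.45, 6.27 and 6.84 on the manganese arrays. Control 1 and manganese 2 were almost equal, so the groups overlapped by a small margin, and control 3 and manganese 3 lay at the extremes. The log2 fold change was 0.57 (0.07 to 1.07), with an adjusted p of 0.351, and 0.51 against control 2 alone. Without control 3 it was 0.37 (-0.10 to 0.84). The 4 passing probe sets of SPRED1 ranged from 0.01 to 0.57, and their mean gave 0.29. SPRED2 (11717656_a_at) read 9.21, 8.19 and 8.50 on the control arrays and 8.07, 8.05 and 8.49 on the manganese arrays. Control 1 stood 0.71 above the next array. The difference was -0.43 (-1.02 to 0.15), with an adjusted p of 0.495. It was -0.14 without control 1 and 0.01 against control 2 alone. The other passing probe set of SPRED2 differed by -0.07.

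**Figure D2:**
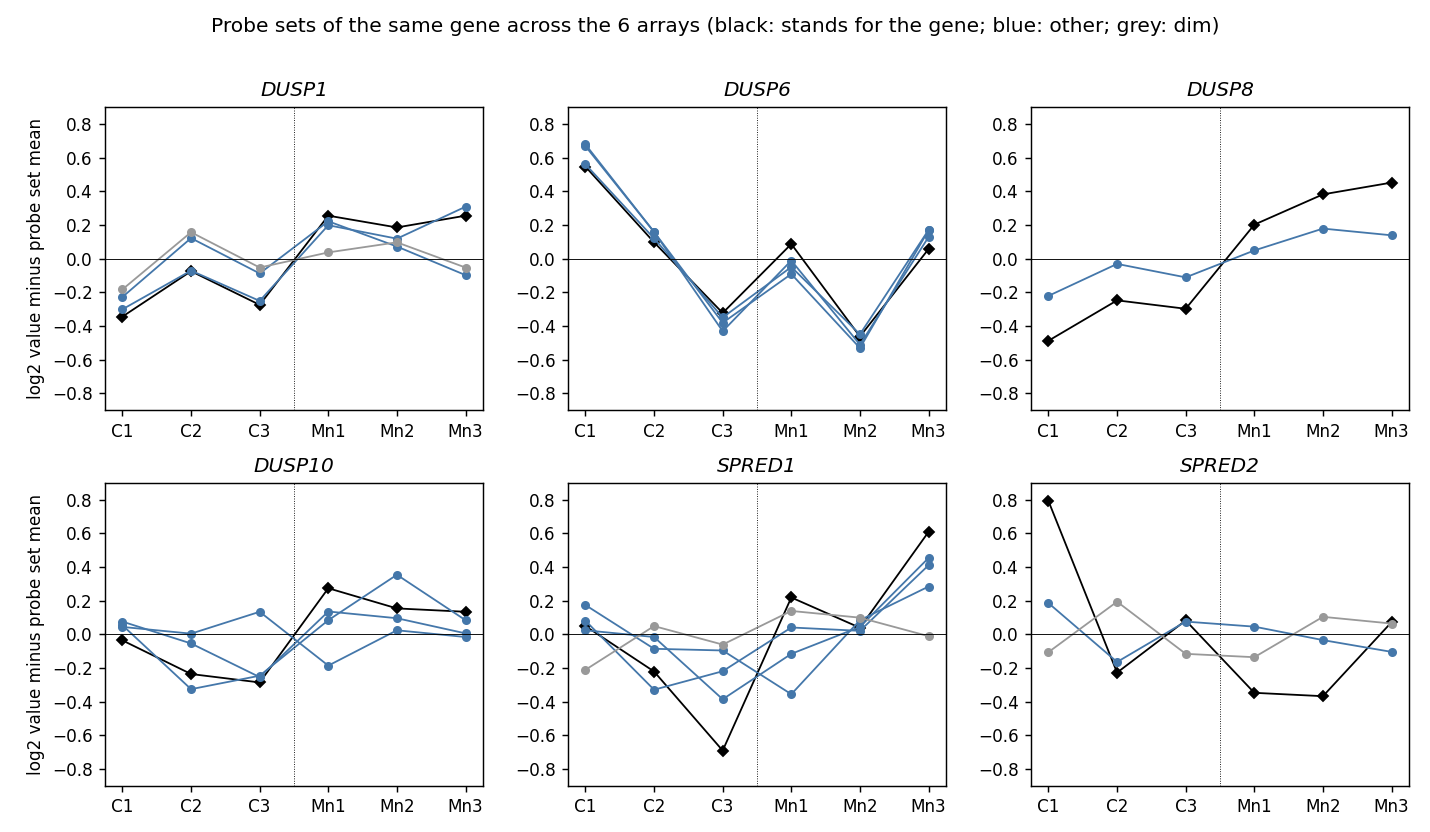
Log2 value of each probe set minus its own mean over the 6 arrays (C1 to C3 control, Mn1 to Mn3 manganese) for the 6 genes with more than 1 passing probe set; black stands for the gene, blue are other passing probe sets and grey are dim ones. The 4 DUSP6 probe sets follow 1 line with control 1 on top, while those of DUSP10 and SPRED1 spread apart.

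Over all 28 probe sets of the 10 genes, 23 passed the filter on dim probe sets and 5 did not. To pass, a probe set had to exceed the 40th percentile of an array's values (4.37 to 4.40) on 3 or more arrays. The probe sets that stand for the 10 genes were above it on all 6 arrays, so none was measured in 1 group alone. In a fit of all 49293 probe sets without that filter, 0 of the 28 passed an adjusted p of 0.05, against 0.0588% of all probe sets. At an unadjusted p under 0.05 there were 10 of the 28, against 10.9% of all probe sets. Among the 28, 8 were higher on all manganese arrays and 1 was lower, against 8.9% and 7.63% of all probe sets. The 8 belonged to DUSP1, DUSP4, DUSP5, DUSP8 and DUSP10, and the 1 was that of SPRY2. The 5 dim probe sets had differences from 0.02 to 0.15 and overlapping groups.

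**Figure D3:**
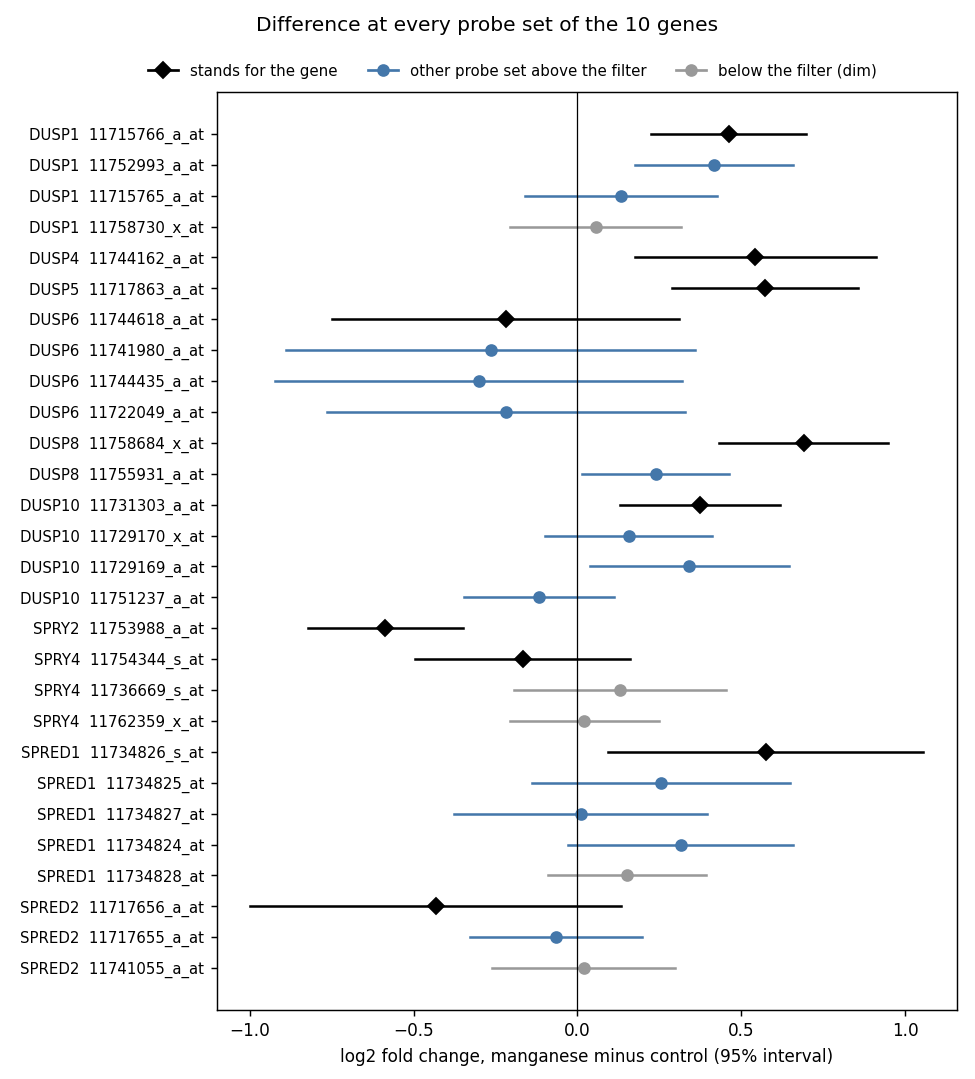
Log2 fold change, manganese minus control, with its 95% interval for each of the 28 probe sets from the fit of all 49293 probe sets; diamonds mark the probe set that stands for a gene and grey marks the 5 dim ones. DUSP8 and SPRY2 lie farthest from 0 relative to their intervals, and the 4 DUSP6 intervals all span 0.

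The other members of both families differed by 0.22 or less in size at the probe set that stands for each. Of the 4 other MAP kinase phosphatases 3 passed the filter and none passed the test, with a median of 0.07. DUSP9, a cytoplasmic ERK phosphatase like DUSP6, differed by 0.22 (-0.31 to 0.74) and by -0.33 against control 2 alone. DUSP2, a nuclear phosphatase of immediate early type, differed by 0.07 (-0.23 to 0.36). DUSP16, which acts on JNK and p38 like DUSP8 and DUSP10, differed by -0.00 (-0.57 to 0.56), with control 1 at 7.71 and the other controls at 6.68 and 7.01, and by 0.45 against control 2 alone. DUSP7 was dim, at 3.90 to 4.23 on control and 4.18 to 4.37 on manganese arrays. SPRY1 differed by -0.11 (-0.35 to 0.12), SPRY3 by -0.01 (-0.26 to 0.24) and SPRED3 by 0.09 (-0.18 to 0.36), and none of the 3 passed. The 2 other passing probe sets of SPRY1, which held equal values, differed by -0.26 (-0.51 to -0.01), and the mean of the 3 gave -0.21 (-0.44 to 0.02) with an adjusted p of 0.426.

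Transcripts that report ERK activity were mixed. Of 21 tested ERK-responsive transcripts outside the 10 genes, 16 had positive and 5 negative changes, with a median of 0.15. In that list 7 were higher on all manganese arrays and 2 lower, against 10.5% and 9.26% of all tested genes, and 1 passed the test. The 2 lower were MYC at -0.40 (limma adjusted p 0.251) and ETV1 at -0.65 (0.288), and neither passed. Against control 2 alone MYC was at -0.55 and ETV1 at -0.36. EGR1, an immediate early transcription factor of the zinc finger class, rose by 1.14 (0.86 to 1.42), with a limma adjusted p of 0.0189. It read 6.88, 6.85 and 6.92 on the control arrays and 7.93, 7.90 and 8.24 on the manganese arrays, so the controls were almost level and far below. Its 6 probe sets ranged from -0.06 to 1.14, and their mean gave 0.53. The EGR1 call was lost without control 3 (adjusted p 0.162) and without manganese 1, 2 or 3 (0.106, 0.109 and 0.102), with log2 fold changes of 1.03 to 1.20. Each of those fits called 0 of the 13407 tested genes. KLF10 at 0.72 (adjusted p 0.189), ARC at 0.64 (0.188) and IER3 at 0.53 (0.188) followed and did not pass. Against control 2 alone they were at 0.77, 0.40 and 0.35. With centring on housekeeping genes, which called 255 genes in all, KLF10 (adjusted p 0.0129) and ARC (0.0396) passed. With array weights all 3 did, but that fit called 3945 of 13407 tested genes and its weight estimation did not converge.

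FOS, the classic ERK-induced partner in AP-1, gave different values by probe set, and it is described here after its values had been seen. The probe set with the highest mean, which stands for the gene, differed by 0.03 (-0.24 to 0.30). The probe set designed on the reference FOS mRNA (11734659_a_at) read 3.97, 4.23 and 4.02 on the control arrays and 5.98, 6.25 and 6.57 on the manganese arrays. On the control arrays it was below the 40th percentile, so background limits its fold. It rose by 2.19 (1.84 to 2.55), with an adjusted p of 0.00447 in the fit of all 49293 probe sets, and this call was lost without manganese 2 (adjusted p 0.0662, at 2.20). A further FOS probe set differed by 1.16 with an adjusted p of 0.0515, and the remaining one by 0.27. The 1.16 passed in 5 of 13 alternatives, among them the fit without control 1 (adjusted p 0.0244), and its adjusted p ranged up to 0.468, with spike-in level as a term.

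Other inhibitors of receptor, RAS and ERK signalling leaned lower. Of 10 tested, 9 had negative changes, with a median of -0.29, 2 were lower on all manganese arrays and none passed. Control 1 was the highest array for IL17RD, TRIB1, CBLB, PPP2CA, LRIG1, ERRFI1 and CBL. Against control 2 alone PPP2CA was at -0.12, ERRFI1 at -0.06, PTPN7 at -0.02, CBL at 0.10 and NF1 at 0.11. LRIG1 was at -0.34 and PEBP1 at -0.23. The part of control 1 in the lean was not tested. Of all tested genes 6148 of 13407 had negative changes and 9.26% were lower on all manganese arrays. IL17RD, a membrane inhibitor of FGF signalling also known as SEF, read 8.80, 7.69 and 8.00 on the control arrays and 7.18, 7.12 and 7.71 on the manganese arrays. Its difference was -0.83 (-1.48 to -0.17; adjusted p 0.332), or -0.35 against control 2 alone, and its other passing probe set gave -0.00. It passed with centring on housekeeping genes (adjusted p 0.0411) and with array weights, settings that called 255 and 3945 of the 13407 tested genes. The weight estimation did not converge. TRIB1, a pseudokinase, differed by -0.67 (adjusted p 0.317) and by -0.26 against control 2. The ubiquitin ligase gene CBLB, which acts on activated receptors, differed by -0.33 (adjusted p 0.339) and by -0.37 against control 2.

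The kinases themselves showed no gene past the threshold. In the ERK cascade 12 genes were tested, with 5 positive and 7 negative changes and a median of -0.04. MAPK3, which encodes ERK1, differed by 0.39 (-0.07 to 0.84) and MAP2K2, which encodes MEK2, by 0.32 (-0.09 to 0.72). Against control 2 alone these were 0.01 and 0.04. In the JNK and p38 cascades 17 genes were tested, with 7 positive and 10 negative changes and a median of -0.18. MAP2K6, an activator of p38, differed by -0.50 (-0.97 to -0.03; adjusted p 0.370) and MAP3K4, a stress-activated kinase upstream of it, by -0.63 (-1.30 to 0.03). Control 1 was the highest array for both, and against control 2 alone they were at -0.21 and -0.01. It was also the highest for MAP2K4, MAPK10, MAP3K1, MAPK8, MAPK9 and MAP3K7. Against control 2 alone these were at -0.08, -0.19, 0.04, 0.05, -0.11 and 0.02. For the remaining negative genes, MAP3K12 and MAPKAPK2, it was not the highest, and they were at -0.26 and 0.05. The part of control 1 in the list median was not tested.

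**Figure D4:**
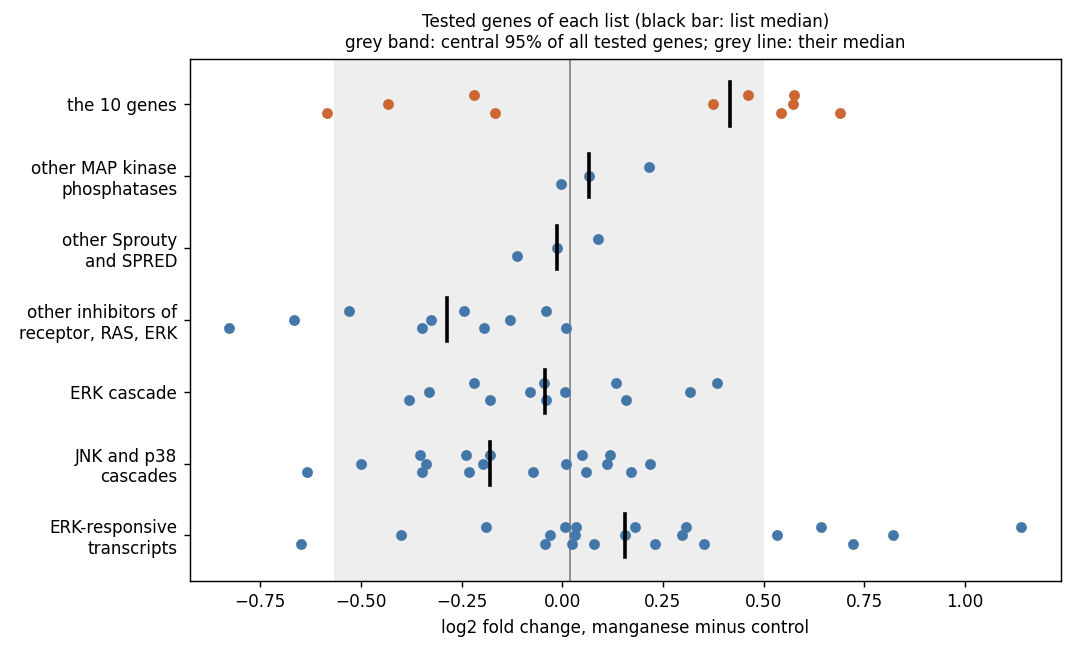
Log2 fold change, manganese minus control, of each tested gene in the 10 genes and in 6 lists of related genes, with the list median as a black bar, over the central 95% of all 13407 tested genes in grey (-0.56 to 0.50). Of the 10 genes 4 lie above the band and 1 below, and EGR1 is the point farthest right.

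The genes whose profile over the 6 arrays was nearest to that of DUSP8, once each was centred on its own mean, were DYNLT3, NDRG1 and SFXN3. Their mean absolute differences from the DUSP8 profile were 0.0551, 0.0649 and 0.0689 log2 units. DYNLT3, a dynein light chain gene, differed by 0.64, the hypoxia-responsive gene NDRG1 by 0.66 and SFXN3, a mitochondrial carrier gene, by 0.64. None of the 3 passed, with adjusted p of 0.142, 0.111 and 0.107. The 3 genes were picked for this nearness on the same arrays. Differences close to that of DUSP8 therefore follow from the choice and are a description only.

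Against control 2, the only control whose spike-in RNA read as on the manganese arrays, 8 of the 10 genes kept their sign, and the difference was smaller for 8. For DUSP1, DUSP4, DUSP5, DUSP8, DUSP10 and SPRY2 the sign was fixed in advance, since their groups do not overlap. DUSP6 was at -0.21 and SPRY2 at -0.68, and the signs of SPRY4 and SPRED2 turned. Among the 5 phosphatases with non-overlapping groups, DUSP10 had a larger difference from control 2 than from all controls, and DUSP4 had the smallest. With 1 array left out at a time, DUSP8 lay between 0.62 and 0.76, SPRY2 between -0.66 and -0.54 and DUSP4 between 0.42 and 0.71.

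**Figure D5:**
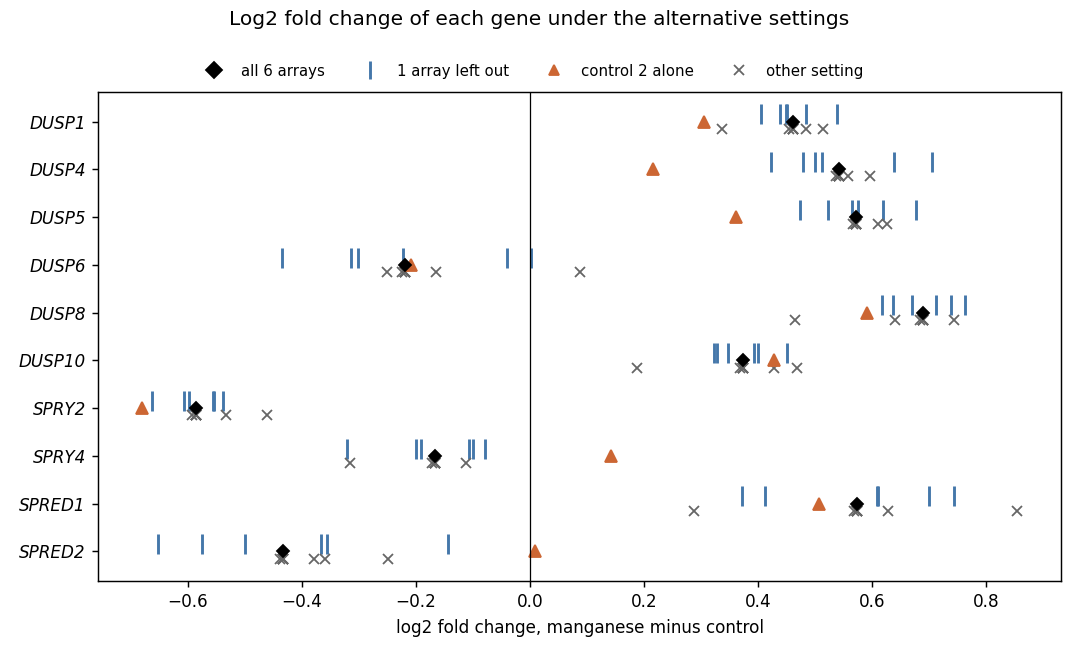
Log2 fold change of each of the 10 genes with all 6 arrays (diamond), with 1 array left out (bars), against control 2 alone (triangle, equal to the fit with spike-in level as a term) and under the other settings (crosses). DUSP1, DUSP4, DUSP5, DUSP8, DUSP10 and SPRED1 stay above 0 and SPRY2 stays below 0 in all settings shown, while DUSP6, SPRY4 and SPRED2 cross 0 in some.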

How the data were processed

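The authors deposited log2 expression values for 6 arrays, which the submitters' processing notes tie to RMA and the Affymetrix Expression Console (versions not given in the sources used here). RMA sets all arrays to one intensity distribution, so a shift shared by most genes is removed. Of the probe sets, 102 were Affymetrix controls. Gene names came from the platform annotation, checked by Entrez number against RefSeq, and 0 symbols changed.

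A probe set was kept if it exceeded the 40th percentile of the values of 3 or more arrays. The kept probe set with the highest mean stood for its gene, and 13407 genes were tested in R 4.3.3 using limma 3.58.1 (lmFit, eBayes, group as the only term, two-sided, Benjamini-Hochberg over all genes). A second fit took all 49293 probe sets without the filter. Intervals are 95% from these fits, and fold changes are manganese minus control. The code was tested on simulated data. Arrays give no counting depth, so their number limits the precision.

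The 10 genes and the lists were chosen with earlier results of these data known. Named were the 10 genes, the other family members and up to 4 genes per list (those past the threshold, then by unadjusted p), and the 3 genes nearest in profile to the one with the smallest p. FOS, MYC and ETV1 were named outside this rule. The 16 alternatives changed the filter, variance model, array weights, scaling, probe set rule, replicate block and controls, or left out 1 array.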

Additional observations from a re-analysis of the deposited data

How the results depend on the processing

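No alternative changed the call of a gene among the 10 except array weights and centring on housekeeping genes. With array weights 9 of the 10 passed, all but DUSP6, along with 3945 genes in all and 1 of the 28 probe sets (DUSP8). The weight estimation did not converge and gave control 3 a weight of 8.22 and control 1 a weight of 0.15. With centring on housekeeping genes DUSP8 passed at an adjusted p of 0.0210, the 1 of the 10, with 255 genes in all and 3 of the 28 probe sets, 1 each of DUSP5, DUSP8 and SPRED1. The DUSP8 interval was wider there than in the main fit, 0.38 to 1.11 against 0.41 to 0.97. Its unadjusted limma p was nevertheless smaller, 0.000211 against 0.000436. The smaller p therefore does not stand for a more precise difference, and its cause was not tested. Of the lists, array weights called 12 ERK-responsive transcripts, 3 other inhibitors, 8 ERK cascade genes and 4 JNK and p38 cascade genes, and centring on housekeeping genes called 4, 1, 0 and 0. The median of the 10 genes was 0.24 with the mean of passing probe sets and 0.26 both with spike-in level as a term and against control 2 alone. Those settings called 2 and 5 genes in all. Leaving out 1 array gave a median of 0.35 to 0.44, 0 of the 10 genes and 0 to 43 genes in all. The replicate block called 6 genes in all and 0 of the 10. The numbers do not pair the arrays: deviations of same-numbered arrays correlated at -0.30, 0.15 and -0.27, and no array correlated best with its own number.

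Signs turned as follows, and the cause was not tested. Against control 2 alone, SPRY4 was at 0.14, SPRED2 at 0.00842, DUSP9 at -0.33, DUSP16 at 0.45 and SPRY3 at 0.0857. Spike-in level as a term gave the same values by construction. With array weights DUSP6 was at 0.0878, DUSP2 at -0.0561 and DUSP16 at 0.0792. Centring on housekeeping genes gave 0.0498 for DUSP16 and 0.0391 for SPRY3, and the mean of passing probe sets 0.0786 for DUSP16. With 1 array left out, DUSP6 ranged from -0.43 to 0.00223, DUSP2 from -0.0395 to 0.14, DUSP16 from -0.23 to 0.29 and SPRY3 from -0.0644 to 0.0443. EGR1 also lost its call with the mean of passing probe sets (0.53, adjusted p 0.0976), the replicate block (1.14, 0.0604), spike-in level as a term (1.17, 0.201) and control 2 alone (1.17, 0.207). The FOS probe set lost its call with spike-in level as a term (2.04, 0.0700) and control 2 alone (2.04, 0.124). Levels near the 40th percentile, such as DUSP7 and the dim probe sets, are close to background.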
